A study of Mus musculus with 8 samples.

Results

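The nuclear genes of oxidative phosphorylation were followed across genotype and cell number in mouse embryonic stem (ES) cells. Members were chosen by name. They were the protein-coding genes of the count table whose symbols start with the prefixes used for subunits of complexes I to V (*Ndufa*, *Ndufb*, *Ndufc*, *Ndufs*, *Ndufv*, *Uqcr*, *Cox4i*, *Cox5* to *Cox8*, *Atp5*), together with *Sdha*, *Sdhb*, *Sdhc*, *Sdhd* and *Cyc1*. They also had to reach an average of 1 CPM over the 8 libraries. CPM is the count of a gene scaled to the library total. The minimum used the plain total, and the levels of genes given below were also adjusted by the TMM method, unless stated. The names matched 94 genes, and 91 of them passed the minimum, out of 43309 genes in the table. The 3 genes below the minimum, *Cox6a2*, *Cox8b* and *Cox8c*, encode isoforms known from muscle or testis. By function, the 91 members comprised 36 genes of complex I, 4 of complex II, 9 of complex III, 17 of complex IV and 16 of complex V. The prefix *Ndufa* also brought in 8 assembly factors of complex I (the *Ndufaf* genes), and the prefix *Atp5* brought in *Atp5s*, which encodes a factor of the ATP synthase that is not a standard subunit. *Ndufa4* and *Ndufa4l2* carry a complex I name and were placed in complex IV, with which their proteins are now associated. No mitochondrially encoded gene was in the table (0 genes), so only nuclear subunits are described.

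Oxidative phosphorylation takes place in the inner mitochondrial membrane. Complex I (NADH dehydrogenase) and complex II (succinate dehydrogenase, also an enzyme of the citric acid cycle) pass electrons to ubiquinone, complex III (cytochrome bc1) passes them to cytochrome c, and complex IV (cytochrome c oxidase) passes them to oxygen. Complexes I, III and IV pump protons, and complex V (ATP synthase) uses the gradient to make ATP. Each complex except complex II also contains subunits encoded by mitochondrial DNA, which are made by a separate translation system. Naive mouse ES cells are known to use both glycolysis and respiration for ATP.

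The 8 libraries came from J1 (129SV) ES cells grown in serum medium on gelatin without feeders. They were made from lysed cells with the SMARTer Ultra Low RNA Kit, which copies polyadenylated RNA into full-length cDNA and amplifies it by PCR. They form 4 groups of 2: cells labelled *Zbtb24* wild type (WT, 2lox/+) and cells labelled *Zbtb24* knockout (KO, 1lox/1lox), each at 1000 cells (about 10 ng RNA, 10 PCR cycles) and at 100 cells (about 1 ng RNA, 18 PCR cycles). *Zbtb24* encodes a zinc finger protein, and the WT cells thus also carry a loxP-flanked allele. Cell number and PCR cycles changed together, and their effects cannot be told apart. The series record describes 2 clones per genotype as biological replicates and the published methods describe 3, and no label ties a library to a clone. Replicates may thus be clones or repeat preparations, and p-values measure only the spread between these libraries. The cells expressed all 10 ES cell markers examined, with a summed level of 5846 to 7476 CPM per library.

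Several facts about the libraries bear on every result. Total counts ranged from 9666985 to 16686525, and the 91 members took 2.14 to 2.47% of them. *Zbtb24* itself measured 14.1 and 16.4 CPM in the WT libraries of 1000 cells and 40.9 and 37.7 CPM in the KO libraries (log2 ratio 1.37 ± 0.11 SE, edgeR adjusted p = 4.33e-11), and 19.5 and 20.3 against 39.7 and 37.3 CPM at 100 cells. The targeted gene was therefore higher, not lower, in the libraries labelled KO, and whether the labels are right was not tested. A count over all exons does not show whether a segment is missing. Genotypes are given below as the labels state them, and every direction is that of libraries labelled KO against libraries labelled WT. Brain transcripts were present in the KO libraries of 100 cells. Myelin and oligodendrocyte markers summed to 259 to 267 CPM there against 43 to 53.6 CPM in the other 6 libraries, with *Mbp* at 106 and 103 CPM against at most 2.64 CPM. All 7 tested markers of that list were called higher at 100 cells in KO than in WT. Of the other lists, 8 of 11 neuronal markers (summed level 766 to 791 CPM in these libraries and 576 to 788 CPM in the others) and 4 of 5 astrocyte markers (205 to 212 CPM, against 74 to 153 CPM) were also called higher, against 1 of 3 fibroblast, 1 of 4 primitive endoderm, 1 of 3 blood and 0 of 2 striated muscle markers tested. Their part in the values of the members at 100 cells was not tested. Finally, the WT libraries of 100 cells differed from each other: 79 of 91 members were higher in replicate 2 than in replicate 1, by a median of 0.23 on the log2 scale, while 51.9% of all tested genes were higher in replicate 2. The median coefficient of variation of the members was 11.6% in this pair, against 2.29 to 4.29% in the other groups.

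Short stretches of DNA before the start sites are shown for 4 members on which the results turn: *Cox5b*, whose ratio was the largest among members above 100 CPM, and *Ndufa11*, *Uqcr10* and *Uqcr11*, which had opposite directions at the 2 cell numbers. RefSeq promoters (GRCm38.p6, 250 bases before to 50 bases after a start site) were matched by symbol for 73 of the 91 members, with 78 start sites. The runs below are written 5′ to 3′ on the strand of the gene and leave out any base inside the annotated gene. They lie at chr1:36691337-36691448 (+) for *Cox5b*, chr17:56717612-56717761 (+) for *Ndufa11*, chr11:4704345-4704494 (-) for *Uqcr10* and chr10:80406831-80406971 (-) for *Uqcr11*. Capitals mark the letters of motifs searched on both strands: GCGCATGCGC (NRF1), CCGGAAG (the ETS family, which includes GABP), AAGATGGC (YY1) and ACGTG (the hypoxia response element).
Cox5b: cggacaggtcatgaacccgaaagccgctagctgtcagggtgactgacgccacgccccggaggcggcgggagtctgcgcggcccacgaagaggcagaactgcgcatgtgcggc
Ndufa11: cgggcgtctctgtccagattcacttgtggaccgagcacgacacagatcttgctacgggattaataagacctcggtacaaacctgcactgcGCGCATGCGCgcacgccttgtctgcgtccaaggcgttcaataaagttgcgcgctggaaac
Uqcr10: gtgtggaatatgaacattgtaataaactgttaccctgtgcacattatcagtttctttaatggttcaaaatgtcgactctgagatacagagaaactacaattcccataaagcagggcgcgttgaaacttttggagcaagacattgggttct
Uqcr11: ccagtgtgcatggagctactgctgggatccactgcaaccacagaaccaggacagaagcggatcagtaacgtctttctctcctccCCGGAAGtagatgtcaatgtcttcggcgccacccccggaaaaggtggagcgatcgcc

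The run of *Ndufa11* holds the palindromic NRF1 letters, that of *Uqcr11* holds the ETS letters, and the runs of *Cox5b* and *Uqcr10* hold none of the 4 motifs. Over the whole 300-base windows, the NRF1 letters were present in 7 of 78 promoters of members (8.97%), against 0.971% of all 32851 promoters and 2.46% of the promoters of coding genes that reached 10 CPM on average. The ETS letters were in 23.1% of promoters of members, 8.86% of all promoters and 20.9% of those of expressed genes. The YY1 letters were in 12.8%, 2.75% and 5.47%, and the hypoxia letters in 21.8%, 19.6% and 27.5% of the same 3 sets. Among members called higher in KO at 1000 cells, 3 of 55 promoters held the NRF1 letters, and among the other members 4 of 23 did. The same counts were 10 of 55 and 8 of 23 for the ETS letters, and 8 of 55 and 2 of 23 for the YY1 letters. For the hypoxia letters they were 12 of 55 and 5 of 23. Whether these shares differ was not tested. Promoters of paralogs and alternative starts of a gene share sequence, and a match of letters is a description only.

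The members were abundant transcripts. Per kilobase of the longest annotated transcript, the mean level over the 8 libraries had a median of 148 CPM per kb over the 91 members, against 4.13 CPM per kb over 14300 tested protein-coding genes. By complex, the medians were 132 CPM per kb for complex I, 171 for complex II, 295 for complex III, 225 for complex IV and 291 for complex V. The complex I assembly factors were lower, with a median of 22.1 CPM per kb. *Atp5b*, the catalytic beta subunit of ATP synthase, had the highest level per length of the 91 (1152 CPM per kb). It was followed by *Cox6a1* (996 CPM per kb) and *Cox4i1* (899 CPM per kb), both subunits of cytochrome c oxidase, and by *Uqcr10* (865 CPM per kb), a small subunit of complex III. The lowest was *Cox4i2* at 1.89 CPM per kb, the isoform of *Cox4i1* known from lung and from hypoxic cells.

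At 1000 cells, transcripts of most members were more abundant in the libraries labelled KO. Of 91 members, 65 (71.4%) were called higher and 3 (3.30%) lower, while 20.9% of all 16816 tested genes were called higher and 20.6% lower (edgeR quasi-likelihood test, adjusted p of at most 0.05). The median log2 ratio of the members was 0.33, or 1.26-fold, with 78 above 0 and 13 below, and the median of all tested genes was 0.00. Among the 8365 tested genes of any type with at least 10 CPM on average (by library total alone), 30.3% were called higher and 27.3% lower. Both KO libraries exceeded both WT libraries in 73 members (80.2%), while this held for 34.6% of all tested genes. Summed over the members, the WT libraries measured 20863 and 20556 CPM and the KO libraries 24415 and 25503 CPM. The groups did not overlap, and the ratio of their means was 1.21.

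**Figure D1:**
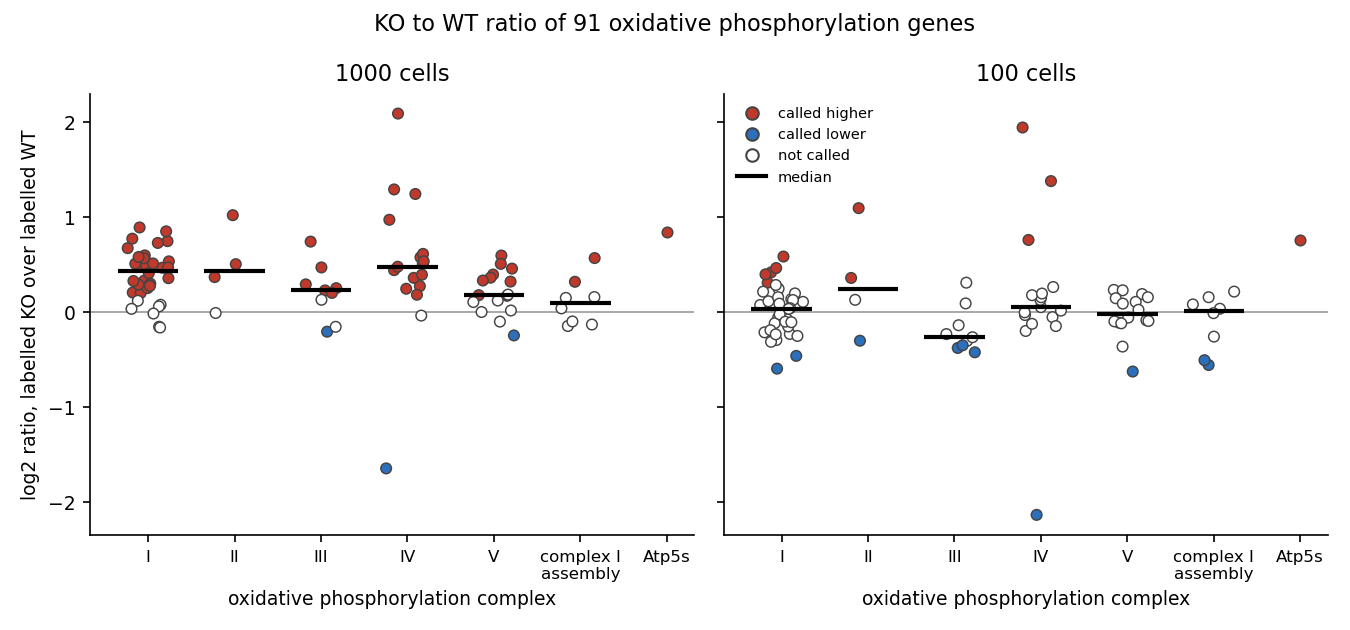
Log2 ratio of libraries labelled KO over libraries labelled WT for each of the 91 members (1 point per gene, n = 2 libraries per group), by complex, at 1000 cells (left) and 100 cells (right). Filled points passed an adjusted p of 0.05, and bars are medians. At 1000 cells, 78 of the 91 points lie above 0, and the medians of complexes I to V lie between 0.18 and 0.48. At 100 cells, the medians of complexes I to V lie between -0.26 and 0.25.

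Counts by complex were as follows. In complex I, 29 of 36 members were called higher and 0 lower (median log2 ratio 0.43). In complex IV, 15 of 17 were higher and 1 lower (median 0.48), and in complex II 3 of 4 were higher (median 0.44). Complex III had 6 of 9 higher and 1 lower (median 0.23), complex V had 9 of 16 higher and 1 lower (median 0.18), and the complex I assembly factors had 2 of 8 higher (median 0.10). Whether these counts differ between complexes was not tested. On summed CPM, the KO to WT ratio at 1000 cells was 1.31 for complex I, 1.29 for complex II, 1.13 for complex III, 1.34 for complex IV and 1.10 for complex V. When CPM was taken from the library totals alone, without TMM, the ratios were 1.24, 1.21, 1.06, 1.26 and 1.03 in the same order.

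**Figure D2:**
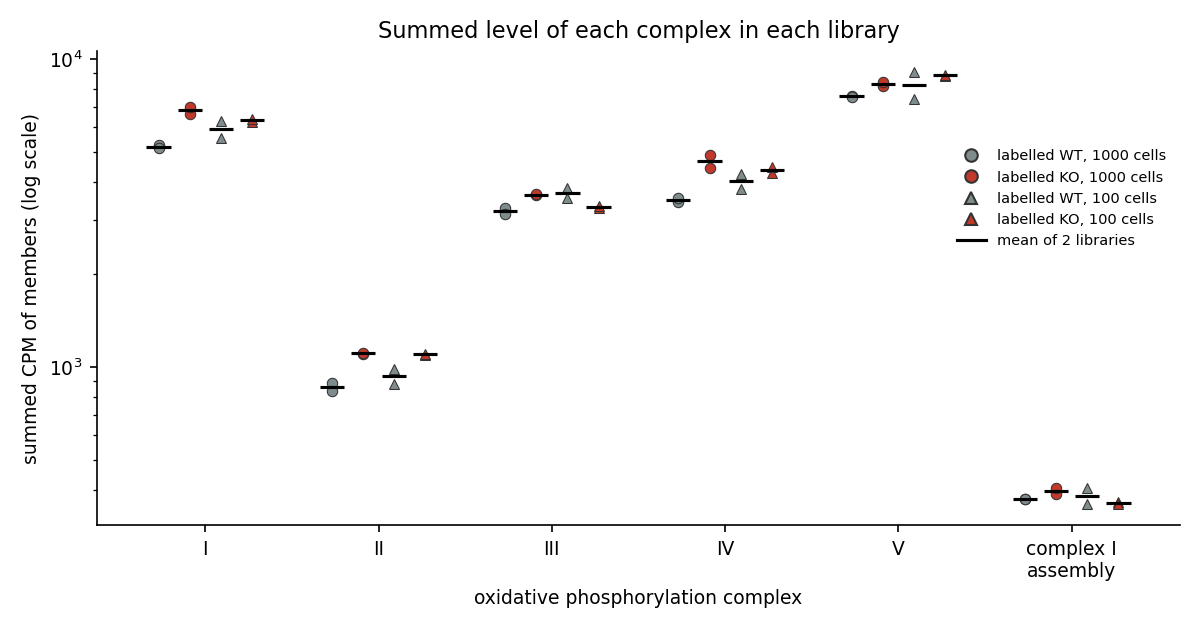
Summed CPM of the members of each complex in each of the 8 libraries, on a log scale, with the mean of each group of 2 as a bar. Complex I averages 5203 CPM (WT) and 6827 CPM (KO) at 1000 cells and 5939 and 6321 CPM at 100 cells, where the WT pair is spread more widely.

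Complex I was read by its core and accessory subunits, a split chosen after the values were seen. The 7 nuclear core subunits carry the flavin, the iron-sulfur clusters and the quinone site, and the 29 accessory subunits surround them. At 1000 cells, 25 of 29 accessory subunits were higher (median log2 ratio 0.47), as were 4 of 7 core subunits (median 0.28), and whether these shares differ was not tested. *Ndufs1*, the largest core subunit, measured 137 and 137 CPM in WT and 228 and 226 CPM in KO (log2 ratio 0.73 ± 0.06 SE, edgeR adjusted p = 1.6e-10). Its KO libraries lay above its WT libraries. *Ndufv1*, which binds the flavin and NADH, measured 168 and 156 CPM in WT against 156 and 134 CPM in KO, and was not called (log2 ratio -0.16 ± 0.07, edgeR adjusted p = 0.0788). *Ndufs7*, an iron-sulfur subunit, was not called either (142 and 119 CPM against 136 and 133 CPM, log2 ratio 0.04).

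The largest ratios of complex I were those of 3 accessory subunits. *Ndufb11*, an X-linked membrane subunit, measured 85.9 and 83.9 CPM in WT and 151 and 164 CPM in KO (log2 ratio 0.89 ± 0.07, edgeR adjusted p = 2.5e-11). It shares 17.5% of its windows with other genes and overlaps *Rbm10* on the opposite strand, and counting ignored the strand. *Rbm10* itself measured 55 and 53.8 against 57.5 and 48.7 CPM and was not called. *Ndufv3* measured 107 and 111 against 195 and 199 CPM (0.85 ± 0.07, edgeR adjusted p = 1.53e-11), and *Ndufb3* measured 70.2 and 74.6 against 119 and 128 CPM (0.78 ± 0.07, edgeR adjusted p = 1.07e-09). At the other end, *Ndufa8* (log2 ratio -0.15) and *Ndufs8* (-0.01) were not called. Among the assembly factors, *Ndufaf3* was higher (24.9 and 24 against 33.6 and 39 CPM, 0.57 ± 0.10, edgeR adjusted p = 5.05e-05), as was the methyltransferase *Ndufaf7* (59.6 and 56.8 against 72 and 73.7 CPM, 0.32 ± 0.08, edgeR adjusted p = 0.00148). *Ndufaf1* (log2 ratio -0.13), *Ndufaf2* (-0.14), *Ndufaf4* (0.04) and *Ndufaf8* (-0.10) were not called.

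Complex II is made of 4 nuclear subunits only. *Sdhc*, which anchors the enzyme in the membrane and binds heme and quinone, measured 71.5 and 70.1 CPM (WT) and 145 and 143 CPM (KO) at 1000 cells (log2 ratio 1.02 ± 0.07, edgeR adjusted p = 1.37e-12). *Sdhb*, the iron-sulfur subunit, measured 245 and 225 against 327 and 342 CPM (0.51 ± 0.06, edgeR adjusted p = 1.05e-07), and *Sdha*, the flavoprotein, 263 and 248 against 338 and 323 CPM (0.37 ± 0.06, edgeR adjusted p = 1.13e-05). None of these 3 had overlapping groups. *Sdhd*, the partner of *Sdhc* in the membrane, measured 309 and 291 CPM in WT and 297 and 301 CPM in KO, with overlapping groups and a log2 ratio of -0.01.

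In complex III, all 5 small subunits were called higher at 1000 cells (median log2 ratio 0.25). Of the 4 core and catalytic subunits, 1 was higher and 1 lower (median -0.01). Over all tested genes, 20.9% were called higher and 20.6% lower. These classes were chosen after the values were seen, and whether they differ was not tested. Of the 5 calls of small subunits, that of *Uqcrh* was lost in 5 refits, among them library size alone and without WT replicate 2, that of *Uqcr10* in 4 and that of *Uqcr11* in 1. *Uqcrb*, a ubiquinone-binding subunit, measured 287 and 300 CPM in WT and 469 and 514 CPM in KO (0.74 ± 0.06, edgeR adjusted p = 4.57e-11). The core protein *Uqcrc2* was higher (269 and 264 against 367 and 373 CPM, 0.47 ± 0.06, edgeR adjusted p = 1.36e-07). Its partner *Uqcrc1* was not called (800 and 702 against 723 and 630 CPM, -0.15 ± 0.07, edgeR adjusted p = 0.0618), and neither was the Rieske iron-sulfur protein *Uqcrfs1* (288 and 276 against 311 and 308 CPM, 0.13 ± 0.06). *Cyc1*, which carries the heme of cytochrome c1, was called lower (478 and 428 against 419 and 369 CPM, -0.20 ± 0.07, edgeR adjusted p = 0.0128). Its groups did not overlap, but the call was lost without WT replicate 1 or KO replicate 2, and offsets for GC content and length turned the log2 ratio to 0.11. *Uqcrb* shares 19.2% of its 50-bp sequence windows with other annotated genes and overlaps *Gm10767* on the opposite strand, so its fragments could be discarded or exchanged. The same holds for *Uqcrc2*, which shares 24.8% of its windows with another gene and overlaps *Pdzd9* on the opposite strand.

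Complex IV held both extremes of the 91 members. *Ndufa4l2*, a hypoxia-induced paralog of *Ndufa4*, measured 12.6 and 12.3 CPM (WT) and 51.8 and 54.6 CPM (KO) at 1000 cells (log2 ratio 2.09 ± 0.11, edgeR adjusted p = 1.28e-15). It overlaps *Shmt2* on the opposite strand, whose own levels were 151 and 136 CPM in WT and 196 and 163 CPM in KO (0.32 ± 0.08, edgeR adjusted p = 0.000973). *Cox5b*, a zinc-binding subunit on the matrix side, measured 169 and 158 CPM in WT and 380 and 420 CPM in KO (1.29 ± 0.07, edgeR adjusted p = 1.17e-15). A share of 25.9% of its sequence windows is found in another annotated gene. Its structural neighbour *Cox5a*, also on the matrix side, measured 110 and 114 against 127 and 143 CPM (0.28 ± 0.07, edgeR adjusted p = 0.00241), a call lost without KO replicate 2.

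The other subunits of the enzyme mostly shared a moderate ratio. *Cox6a1* measured 497 and 494 CPM in WT and 684 and 795 CPM in KO (0.58 ± 0.06, edgeR adjusted p = 9.45e-09). *Cox7a2* measured 231 and 236 against 323 and 354 CPM (0.54 ± 0.06, edgeR adjusted p = 3.77e-08), and *Ndufa4* 343 and 350 against 450 and 462 CPM (0.40 ± 0.06, edgeR adjusted p = 1.85e-06). *Cox8a*, a small membrane subunit, had a log2 ratio of 0.19 ± 0.06 (edgeR adjusted p = 0.0148), and its call was lost without WT replicate 1 or KO replicate 2. *Cox4i1*, the ubiquitous form of the largest nuclear subunit, was the only abundant member of complex IV that was not called (666 and 653 against 624 and 664 CPM, -0.03 ± 0.06). Of the 8 isoforms listed as restricted to particular tissues, 5 passed the CPM minimum. Besides *Ndufa4l2*, 3 of them were higher in KO: *Cox7a1* of heart and skeletal muscle (15.9 and 16.9 against 23.5 and 26.4 CPM, 0.62 ± 0.12), *Cox6b2* of testis (8.57 and 7.04 against 14.5 and 16.4 CPM, 0.97 ± 0.15) and *Cox4i2* (0.521 and 1.15 against 1.48 and 2.28 CPM, 1.25 ± 0.44). *Cox7b2*, also known from testis, was lower (3.41 and 1.96 against 0.699 and 1.04 CPM, -1.64 ± 0.38, edgeR adjusted p = 0.000919). The calls of *Cox4i2* and *Cox7b2* rest on low counts and were lost without WT replicate 1, and that of *Cox4i2* also without KO replicate 2.

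In complex V at 1000 cells, the 5 subunits of the F1 head had 2 higher and 1 lower (median log2 ratio 0.00). Of the 8 stalk and other membrane subunits, 6 were higher and 0 lower (median 0.37). These classes too were chosen after the values were seen, and whether they differ was not tested. *Atp5a1* (888 and 862 against 885 and 870 CPM, log2 ratio 0.00 ± 0.05) and *Atp5b* (2148 and 2074 against 2022 and 1925 CPM, -0.10 ± 0.05), which together form the catalytic sites, were not called. *Atp5c1*, the central shaft, had a log2 ratio of 0.17 ± 0.05 (edgeR adjusted p = 0.0111), which was lost without either WT replicate or without KO replicate 2. *Atp5d*, the delta subunit of F1, was lower (200 and 195 against 172 and 162 CPM, -0.24 ± 0.06, edgeR adjusted p = 0.00281). This call was lost in 1 fit of all 8 libraries and with GC and length offsets, with or without the block (edgeR adjusted p up to 0.694). The other higher call of the F1 head, that of *Atp5e*, was lost in 8 of 14 refits, among them the DESeq2 test and library size alone. *Atp5j*, a subunit of the peripheral stalk, had the largest ratio of the complex (343 and 352 against 506 and 547 CPM, 0.60 ± 0.06, edgeR adjusted p = 1.97e-09), followed by *Atp5mpl* (147 and 152 against 207 and 220 CPM, 0.51 ± 0.06, edgeR adjusted p = 1.81e-07). *Atp5j* shares 20.2% of its windows with another gene and overlaps *Gabpa* on the opposite strand, and *Gabpa* was not called (log2 ratio 0.09). The 3 genes of the proton-carrying c-ring encode the same mature protein, and only *Atp5g2* was called higher (180 and 189 against 223 and 252 CPM, 0.36), with *Atp5g1* at 0.02 and *Atp5g3* at 0.12. Outside the standard subunits, *Atp5s* was higher (15.6 and 14.1 against 26.2 and 27.3 CPM, 0.84 ± 0.12, edgeR adjusted p = 8.26e-07).

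Leaving out 1 library at a time at 1000 cells left 56 to 67 members called higher. The count of members called lower was 1 without WT replicate 1, 5 without WT replicate 2, 5 without KO replicate 1 and 2 without KO replicate 2. Of the 68 calls, 51 were kept in every refit (other scalings, filters and tests, thinning, offsets, the block and each library left out), while a minimum absolute log2 ratio of 1 left 4 higher and 1 lower. Among the 40 members with no sequence window or exon shared with another annotated gene, 23 were higher (median log2 ratio 0.23).

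At 100 cells the members had no common direction. Of 91 members, 11 (12.1%) were called higher in KO and 10 lower, beside 17.6% and 16.6% of all tested genes, and the median log2 ratio was 0.03. Both KO libraries lay above both WT libraries in 29 members (31.9%) and below them in 24 (26.4%), and in 38 the groups overlapped. Over all tested genes these shares were 38.1% and 32%, above those of the members. Summed over the members, the WT libraries measured 21593 and 24809 CPM and the KO libraries 24100 and 24593 CPM, which overlap. By complex, 5 of 36 members of complex I were higher and 2 lower, 2 of 4 of complex II higher and 1 lower, 0 of 9 of complex III higher and 3 lower, 3 of 17 of complex IV higher and 1 lower, 0 of 16 of complex V higher and 1 lower, and 0 of 8 assembly factors higher and 2 lower. The median log2 ratio of complex III was -0.26. The counts moved with single libraries: without WT replicate 1 they were 17 higher and 37 lower, without WT replicate 2 they were 46 and 17, without KO replicate 1 they were 3 and 1, and without KO replicate 2 they were 3 and 0. The spread of the WT pair, given above, and the brain transcripts in the KO libraries belong to the libraries compared here. Their part in these values was not tested.

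The calls of 3 genes at 100 cells were kept in every refit, and a minimum absolute log2 ratio of 1 would leave out *Cox5b*. *Sdhc* measured 57.5 and 67.5 CPM in WT and 139 and 137 CPM in KO (log2 ratio 1.10 ± 0.11, edgeR adjusted p = 0.000235). *Cox5b* measured 201 and 206 against 348 and 363 CPM (0.76 ± 0.10, edgeR adjusted p = 0.000729), and *Ndufa4l2* 15.7 and 18.2 against 44 and 47.3 CPM (1.38 ± 0.14, edgeR adjusted p = 0.000201). In each, the KO libraries lay above the WT libraries at both cell numbers. *Shmt2*, which overlaps *Ndufa4l2*, was higher in KO at 100 cells as well (144 and 175 against 259 and 268 CPM, 0.68 ± 0.12, edgeR adjusted p = 0.00233).

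**Figure D3:**
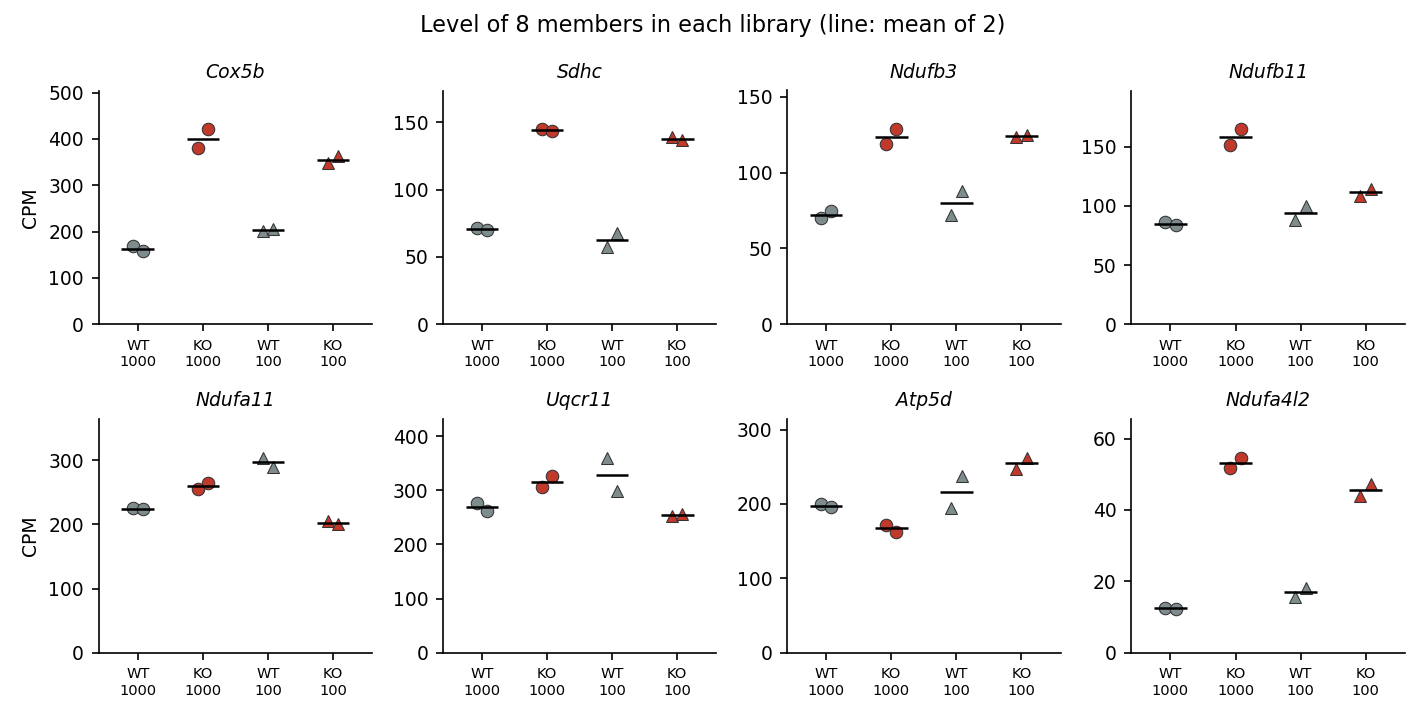
Level of 8 members in each of the 8 libraries in CPM (points), with the mean of each group of 2 as a line and axes that start at 0. *Cox5b*, *Sdhc*, *Ndufb3* and *Ndufa4l2* are higher in the libraries labelled KO at both cell numbers, while *Ndufa11* and *Uqcr11* are higher in KO at 1000 cells and lower at 100 cells.

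Across both cell numbers, 11 members (12.1%) were called higher in KO at both and 1 lower at both, beside 7.52% and 9.24% of all tested genes. The 11 included *Ndufa10*, *Ndufb3* and *Ndufs1* of complex I, *Sdha* and *Sdhc* of complex II, *Cox4i2*, *Cox5b* and *Ndufa4l2* of complex IV, and *Atp5s*. *Cox7b2* was lower at both, with 1.68 and 3.09 CPM (WT) and 0.746 and 0.378 CPM (KO) at 100 cells (log2 ratio -2.13 ± 0.53). Its call at 100 cells was lost without KO replicate 2. A further 50 members were higher at 1000 cells and not called at 100 cells (12.9% of all tested genes), and 4 were higher at 1000 cells and lower at 100 cells (0.523% of all tested genes). Those 4 were accessory subunits: *Ndufa11* of complex I and *Uqcr10*, *Uqcr11* and *Uqcrq* of complex III. *Ndufa11* measured 226 and 223 CPM (WT) and 255 and 264 CPM (KO) at 1000 cells (0.21 ± 0.06, edgeR adjusted p = 0.00619), and 303 and 290 against 205 and 201 CPM at 100 cells (-0.59 ± 0.10, edgeR adjusted p = 0.00243). *Uqcr11* went from 0.23 ± 0.06 at 1000 cells (276 and 262 against 306 and 326 CPM) to -0.42 ± 0.12 at 100 cells (360 and 298 against 252 and 255 CPM). *Uqcr10* had log2 ratios of 0.25 and -0.37, and *Uqcrq* of 0.29 and -0.35. In these genes the KO libraries lay above the WT libraries at 1000 cells and below them at 100 cells. The calls at 100 cells of all 4 were lost when either KO replicate was left out. At 1000 cells, 1 fit of all 8 libraries lost the calls of *Ndufa11*, *Uqcr10* and *Uqcr11*. The call of *Ndufa11* was also lost with library size alone, and that of *Uqcr10* with GC and length offsets and without KO replicate 2.

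**Figure D4:**
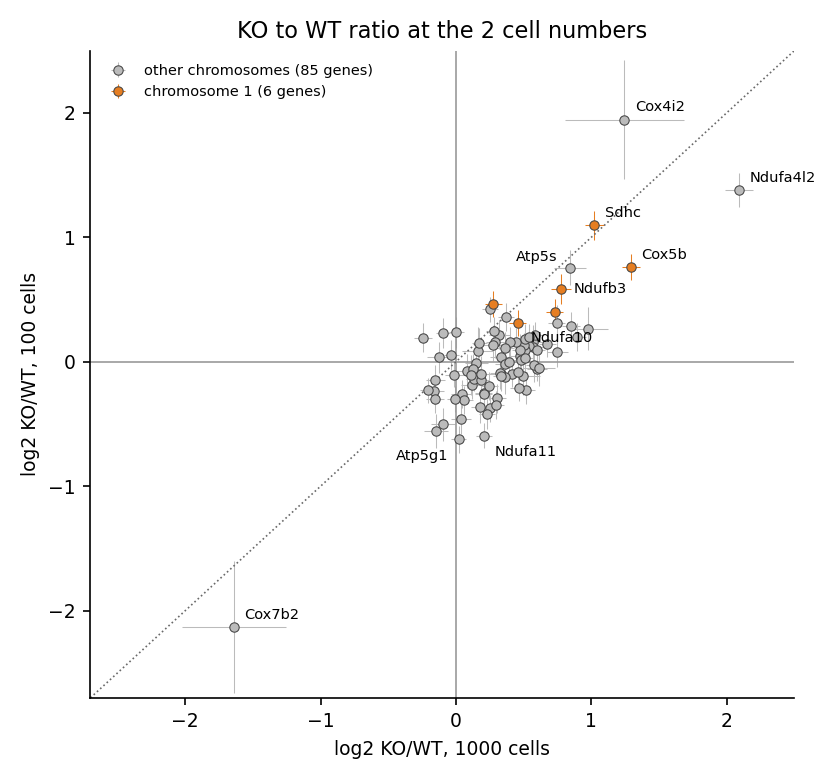
Log2 KO to WT ratio of each member at 1000 cells (horizontal) and 100 cells (vertical), with SE bars and the line of equal values dotted. The 6 members on chromosome 1 lie above 0 on both axes, with medians of 0.75 and 0.53, and most other members lie right of 0 and near 0 on the vertical axis.

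The members on chromosome 1 were higher in KO at both cell numbers. They included *Ndufa10*, *Ndufb3*, *Sdhc* and *Cox5b*, and 6 of 6 were called higher at 1000 cells (median log2 ratio 0.75) and 6 of 6 at 100 cells (median 0.53). The other coding genes of chromosome 1 with at least 10 CPM moved the same way: of 463 such genes, 80.1% were called higher in KO at 1000 cells (median 0.56) and 57.9% at 100 cells (median 0.47). The part of this chromosome-wide difference in the values of the 6 members was not tested. *Ndufa10*, an accessory subunit of complex I, measured 238 and 219 CPM (WT) and 311 and 316 CPM (KO) at 1000 cells, and 225 and 250 against 308 and 299 CPM at 100 cells (log2 ratios 0.46 and 0.31). On the other chromosomes, 59 of 85 members were higher and 3 lower at 1000 cells (median 0.32), and 5 were higher and 10 lower at 100 cells (median -0.01). On chromosome 8, whose other genes had a median of -0.25 at 1000 cells, *Ndufa13* was higher (153 and 155 against 214 and 223 CPM, 0.51 ± 0.06, edgeR adjusted p = 1.66e-07) and *Ndufb7* and *Cox4i1* were not called.

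The difference between the genotype ratios at the 2 cell numbers was tested in 1 fit of all 8 libraries. The KO to WT ratio was lower at 100 cells than at 1000 cells in 23 of 91 members and higher in 1, beside 7.05% and 9.28% of all tested genes (edgeR quasi-likelihood test of the interaction). The median difference was -0.34 on the log2 scale, and 77 members lay below 0. Complex I had 10 of 36 members with a lower ratio at 100 cells, all of them accessory subunits, complex III had 4 of 9, all of them small subunits, complex IV had 5 of 17 and complex V 4 of 16. The largest differences that passed the test were those of *Ndufa11* (-0.76 ± 0.11, edgeR adjusted p = 0.00133) and *Ndufa1* (-0.70 ± 0.13, edgeR adjusted p = 0.0033). *Ndufa1* measured 115 and 113 against 161 and 166 CPM at 1000 cells and 154 and 135 against 126 and 129 CPM at 100 cells. *Atp5d* was the gene with the higher ratio at 100 cells (0.48 ± 0.14, edgeR adjusted p = 0.0299). Its levels at 100 cells were 195 and 237 CPM in WT and 247 and 262 CPM in KO. The count of members with a lower ratio ranged from 4 to 63 as libraries were left out: 7 without WT replicate 1 of 1000 cells, 10 without WT replicate 2, 4 without KO replicate 2, 63 without WT replicate 1 of 100 cells, 40 without WT replicate 2, and 5 and 7 without the KO replicates of 100 cells. The calls of *Ndufa11* and *Ndufa3* were the 2 that were kept in every refit, and no difference exceeded an absolute log2 value of 1 with a call (0 members).

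Within WT, the change from 1000 to 100 cells passed the test in none of the members. The edgeR test called 0 higher and 0 lower, beside 0.149% and 0.678% of all tested genes, and DESeq2 also called 0. An unadjusted edgeR p under 0.05 was found in 21 of 91 members and in 2054 of all 16816 tested genes. The median log2 ratio of 100 over 1000 cells was 0.15, with 81 of 91 members above 0, and both libraries of 100 cells exceeded both libraries of 1000 cells in 49 members (53.8%), against 21.3% of all tested genes. *Cox7a1* had the largest ratio (0.46), followed by *Ndufa4l2* (0.43) and *Cox6b2* (0.41). Without WT replicate 1 of 100 cells, 51 members were called higher, and without replicate 2, 15 were.

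Within KO, from 1000 to 100 cells, 47 of 91 members were called lower and 9 higher, beside 24.8% and 27.3% of all tested genes, and the median log2 ratio was -0.15. Lower calls comprised 20 of 36 members of complex I, 5 of 9 of complex III, 8 of 17 of complex IV, 8 of 16 of complex V, 2 of 4 of complex II and 4 of 8 assembly factors. *Ndufb11* had the largest decrease that passed the test (151 and 164 CPM at 1000 cells, 109 and 114 CPM at 100 cells, -0.50), followed by *Ndufa6* (184 and 198 against 144 and 149 CPM, -0.38). The 9 higher members included 3 subunits of the F1 head: *Atp5d* (172 and 162 against 247 and 262 CPM, 0.61), *Atp5a1* (885 and 870 against 1196 and 1241 CPM, 0.48) and *Atp5b* (2022 and 1925 against 2609 and 2590 CPM, 0.40). *Sdha* (338 and 323 against 432 and 424 CPM, 0.38) was also higher. *Atp5a1* overlaps *Haus1* on the opposite strand, whose log2 ratio of 100 over 1000 cells in KO was -0.16. The brain transcripts described above were present in the same 2 libraries of 100 cells. There, 7 of 7 myelin markers, 10 of 11 neuronal markers and 4 of 5 astrocyte markers were called higher, up to a log2 ratio of 8.19. Their part in the values of the F1 subunits and *Sdha* was not tested. The count of lower calls fell to 28 without KO replicate 2 of 1000 cells and to 25 without KO replicate 1 of 100 cells, and with offsets for GC content and length the count of higher calls rose to 20.

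**Figure D5:**
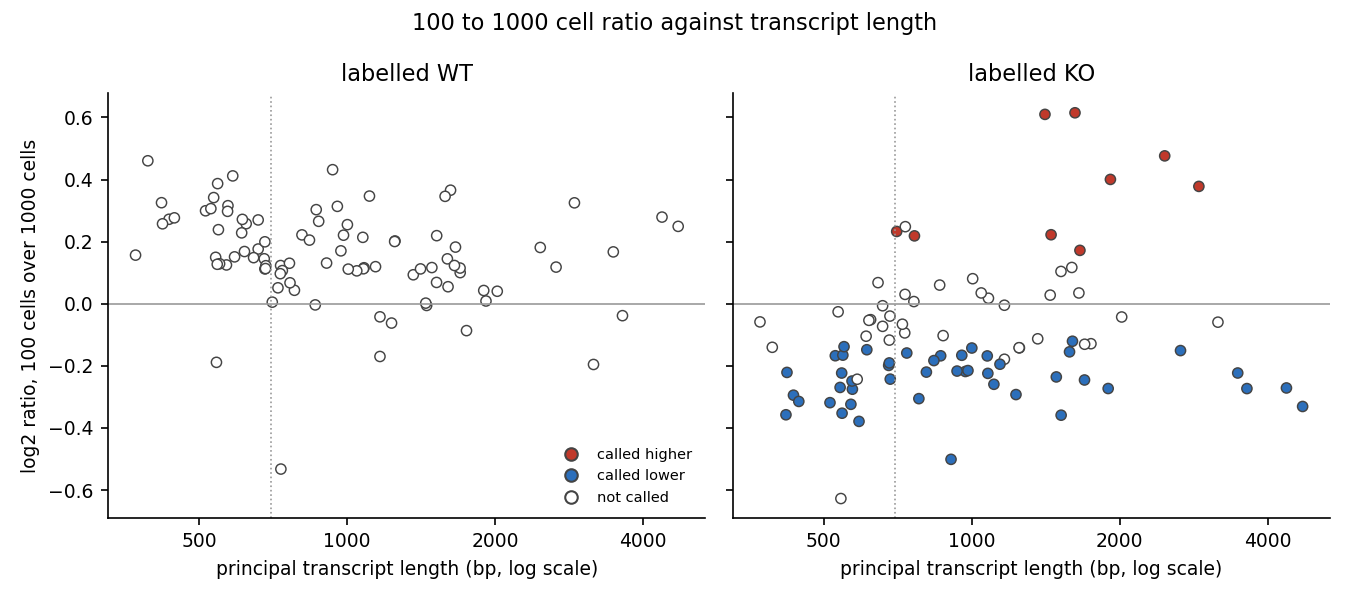
Log2 ratio of 100 over 1000 cells for each member against the length of its principal transcript in bp (log scale), in WT (left) and KO (right), with a dotted line at 700 bp. Below 700 bp the ratios have a median of 0.23 in WT and -0.19 in KO, and all 9 members called higher in KO are longer.

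Many members are short transcripts, and the cell number ratios were set against length. The median principal transcript of the members was 875 bp, against 2979 bp for all tested coding genes. The 32 members under 700 bp had a median log2 ratio of 0.23 in WT and -0.19 in KO, with 19 called lower and 0 higher in KO, and the 59 longer members had medians of 0.12 and -0.13, with 28 lower and 9 higher. Other genes of at least 10 CPM gave the same signs: 130 of them under 700 bp had medians of 0.18 in WT and -0.12 in KO, and 7879 longer ones had 0.01 and -0.03. Across genes, Spearman's rho between length and the cell number ratio was -0.35 over the 91 members and -0.27 over 8009 other genes in WT. In KO it was 0.25 over the members and -0.10 over the other genes, with opposite signs. Between length and the difference of the genotype ratios, rho was 0.43 over the members and 0.08 over the other genes. Genes are not independent replicates, and the points share the same libraries and depths. For the KO to WT ratio at 1000 cells, the same rho was -0.10 over the members, and the medians of the short and the long members were 0.36 and 0.33. The 130 other genes under 700 bp had a median of 0.30 in the same comparison, and the 7879 longer ones had 0.0061.

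Genes that work with the complexes were read from lists. Of all tested genes, 20.9% were called higher in KO and 20.6% lower at 1000 cells, and 17.6% and 16.6% at 100 cells. Among tested genes of at least 10 CPM, the shares at 1000 cells were 30.3% and 27.3%. Whether the counts of the lists differ from these shares was not tested. Of 34 tested assembly factors outside the members, 11 were called higher in KO at 1000 cells and 7 lower (median log2 ratio 0.04), and at 100 cells 4 were higher and 9 lower. *Sdhaf4*, which assists the insertion of the flavoprotein into complex II, had the largest ratio at 1000 cells (35.8 and 35.3 against 71.6 and 79.5 CPM, 1.09). It lies on chromosome 1, as does *Bcs1l* (42.7 and 39.8 against 62.6 and 62.7 CPM, 0.60), which inserts the Rieske protein into complex III. *Ecsit*, a complex I assembly factor, was lower at 1000 cells (52.4 and 47.4 against 29.5 and 26.6 CPM, -0.84), and the ATP synthase assembly factor *Atpaf2* was lower at both cell numbers (100.2 and 90.8 against 59.6 and 64.1 CPM at 1000 cells, log2 ratios -0.63 and -0.74).

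The pathways that supply and use the chain were read the same way, beside the same shares of all tested genes. Whether their counts differ from those shares was not tested. Of 16 genes of the citric acid cycle and pyruvate dehydrogenase outside complex II, 6 were higher and 2 lower at 1000 cells (median 0.08), and 3 were higher and 2 lower at 100 cells. *Fh1*, fumarate hydratase on chromosome 1, had the largest ratio (155 and 151 against 266 and 262 CPM, 0.78). Of 7 carriers, 3 were higher and 3 lower at 1000 cells, and 1 was higher and 3 lower at 100 cells. *Cycs*, cytochrome c, was among the higher ones at 1000 cells (307 and 303 against 353 and 378 CPM, 0.26), while *Slc25a4*, the heart-type ADP/ATP carrier, was lower at both cell numbers (824 and 795 against 559 and 587 CPM at 1000 cells, -0.50, and -0.79 at 100 cells). Of 17 genes of mitochondrial biogenesis and mitochondrial DNA expression, 6 were higher and 3 lower at 1000 cells (median 0.08), and 2 were higher and 2 lower at 100 cells. The regulator *Nrf1*, whose motif is printed above, had a log2 ratio of -0.21 at 1000 cells (73.6 and 72.1 against 66.5 and 60 CPM, edgeR adjusted p = 0.0388). *Tfam*, which packages mitochondrial DNA, was not called (133 and 132 against 129 and 134 CPM). *Twnk*, the mitochondrial DNA helicase, was lower at both cell numbers (24.1 and 26.2 against 15.9 and 16.3 CPM at 1000 cells, log2 ratios -0.63 and -0.74).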

How the data were processed

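RNA of 8 ES cell libraries was sequenced by the authors, who deposited raw fragment counts per gene. Per the labels and the study's methods, reads were called with CASAVA 1.8.2, ribosomal reads were removed with Bowtie2 2.1.0, the rest were mapped to mm10 with TopHat2 2.0.10, and fragments were counted with HTSeq 0.6.1 over GENCODE M4 genes, without strand. Fragments that matched several genes or positions were discarded. Genes that share sequence therefore lose counts, and overlapping genes on opposite strands cannot be told apart. Removal of PCR duplicates is not given in the sources used here.

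A gene entered the tests (16816 genes) when any library held 10 or more of its counts. Each comparison used its own 4 libraries, and the interaction used all 8, in edgeR 4.0.16 under R 4.3.3 (quasi-likelihood, TMM, two-sided, Benjamini-Hochberg over all tested genes, threshold 0.05). SE is the size of the log2 ratio divided by the root of F. Gene lengths and 50-bp windows came from GENCODE M21 (97.96% of identifiers matched). Fits were tested on simulated data with changes larger than most ratios given here and the same spread for every gene. That test does not cover smaller changes or a spread that differs between groups. Alternatives included DESeq2 1.42.0, other scalings and filters, thinning, GC and length offsets, a replicate block, and leaving out each replicate.

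Members, lists and tests were chosen with earlier results of these data known. Genes named by rule were core subunits, tissue isoforms, the 2 largest and 2 smallest called ratios per complex and comparison, and genes with opposite calls. Other named genes and the subunit classes within complexes were chosen after their values were seen. Values of some genes are not reported here.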

Additional observations from a re-analysis of the deposited data

Results flagged for a closer look

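The KO to WT ratio of 24 members differed between the cell numbers by the test of the interaction in 1 fit of all 8 libraries (edgeR). Values are the log2 ratio at 100 cells minus that at 1000 cells. In complex I they were -0.70 for *Ndufa1*, -0.76 for *Ndufa11*, -0.63 for *Ndufa12*, -0.61 for *Ndufa2* and -0.64 for *Ndufa3*. They were -0.55 for *Ndufa6*, -0.49 for *Ndufa7*, -0.65 for *Ndufb11*, -0.47 for *Ndufs6* and -0.52 for *Ndufv3*. In complex III they were -0.59 for *Uqcr10*, -0.61 for *Uqcr11*, -0.42 for *Uqcrh* and -0.60 for *Uqcrq*. In complex IV they were -0.49 for *Cox5b*, -0.56 for *Cox6a1*, -0.62 for *Cox7a1*, -0.40 for *Cox7a2l* and -0.67 for *Ndufa4l2*. In complex V, *Atp5e* was at -0.50, *Atp5g1* at -0.60, *Atp5j2* at -0.50 and *Atp5mpl* at -0.44, and *Atp5d* at 0.48 was the member with the opposite sign. Each of these values uses the KO libraries of 100 cells, in which brain transcripts were present, and the more widely spread WT pair of 100 cells. The part of the brain transcripts and of that spread in the values was not tested.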

How the results depend on the processing

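Among the recomputed counts and medians over the members, 206 stayed within 1.5 times the count or 1 SD between replicates, and 76 moved further. At 1000 cells, KO against WT, library size alone gave 9 members lower and a median log2 ratio of 0.25, 1 fit of all 8 libraries gave 1 lower, and GC and length offsets gave a median of 0.25, with or without the block. At an absolute log2 ratio above 1, 4 were higher and 1 lower. The 40 members without shared sequence gave 23 higher and a median of 0.23. Leaving out 1 library gave 1 to 5 lower and medians of 0.29 to 0.40. At 100 cells, the count lower was 5 without a filter, and the count higher was 20 in 1 fit of all 8 libraries, 21 with GC and length offsets and 5 outside chromosome 1 (an alternative chosen after seeing the data). Above an absolute log2 ratio of 1, 3 were higher and 1 lower, and members without shared sequence gave 4 higher, 6 lower and a median of -0.090. Leaving out 1 library gave 3 to 46 higher, 0 to 37 lower and medians of -0.083 to 0.15. Within WT, 1 fit of all 8 libraries called 6 members higher at 100 cells, and leaving out 1 library gave 0 to 51. Within KO, that fit called 15 lower, GC and length offsets called 20 higher with a median of -0.067, an absolute log2 ratio above 1 left 0 higher and 0 lower, and members without shared sequence gave 3 higher and 16 lower. Leaving out 1 library gave 25 to 52 lower. For the interaction, 2 members were higher with DESeq2 size factors, library size alone, no filter, the DESeq2 test, and GC and length offsets, which gave a median of -0.16. An absolute log2 ratio above 1 left 0 higher and 0 lower, and members without shared sequence gave 0 higher and 9 lower. Leaving out 1 library gave 0 to 7 higher, 4 to 63 lower and medians of -0.44 to -0.19.

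Whether replicate numbers pair the libraries could not be settled from the counts, since each group holds 2 libraries. Between cell numbers, deviations from the group means of libraries with the same number correlated at -0.12 (WT) and -0.04 (KO). Between genotypes they correlated at 0.16 (1000 cells) and 0.17 (100 cells). With a replicate block, 67 members were higher and 6 lower at 1000 cells, 12 and 12 at 100 cells, 0 and 0 within WT, 10 and 48 within KO, and 1 and 26 for the interaction. The block with GC and length offsets gave 26 higher at 100 cells, 23 higher within KO (median -0.067) and 2 higher for the interaction (median -0.16). The crossed pairing within WT gave 0 and 0.

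Under GC and length offsets, with or without the block, *Cyc1* turned to 0.11 at 1000 cells, to -0.49 within KO and to -0.37 for the interaction. Within KO the same offsets turned *Atp5l* to 0.047 (0.051 with the block), *Cox4i1* to -0.011 (-0.010), *Cox5b* to 0.012, *Cox7c* to 0.22, *Ndufa4* to 0.29, *Ndufv1* to -0.095, *Uqcrb* to 0.46 and *Uqcrc1* to -0.16, and with the block *Cox7a2* to 0.095. At 100 cells *Cox6a1* turned to 0.14 without WT replicate 1. The causes were not tested. With 2 libraries per group, a lone library left after omission was assumed to vary like the other group.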
